A study of Mus musculus with 5 samples.

Results

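The voltage-gated and potassium ion channel genes of the injured mouse retina were examined: the pore-forming and auxiliary subunits of sodium, potassium, calcium and hyperpolarization-activated (HCN) channels. Members were chosen by gene symbol alone, though with earlier results of these data known. The gene groups and marker lists below were also drawn up with those results known. A gene was a member if its symbol began with Scn, Kcn, Cacna, Cacnb, Cacng or Hcn in the pattern used for channel subunits, and only Kcnj8 was set aside. Of the 25655 genes counted, 135 were members, and 115 of them passed the filter on low counts that left 14992 genes for testing. The other 20 members were sparse: 4 (Kcnmb3, Kcnk16, Kcnk18 and Kcnk7) had 0 counts in every retina, and the highest count of any of the 20 in a retina was 17, for Kcnq1.

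RNA was sequenced from whole retinas of wildtype C57BL/6 mice, 8 to 10 weeks old, 7 days after optic nerve crush (ONC), an injury that severs the axons of the retinal ganglion cells (RGCs). Both groups carried the injury, and no uninjured retina was compared here. The DMSO group (n = 3, replicates 1, 2 and 3) received the vehicle, and the Sorbinil group (n = 2, replicates 1 and 3) received 10 mg/kg Sorbinil intraperitoneally each day from the day before the crush. Sorbinil inhibits aldose reductase, the enzyme that turns glucose into sorbitol, and the comparison asks which transcripts differ in the injured retina when the enzyme is inhibited. The totals were 56096541 to 90288552 counts per DMSO retina and 61577775 and 63496682 in the Sorbinil retinas. Sorbinil replicate 1 stood apart from the other 4 retinas: the first principal component of all genes, with 65.4% of the variance, separated it from them, so values are given for each retina. Y-linked counts marked DMSO replicates 1 and 2 and Sorbinil replicate 1 as male and the other 2 retinas as female.

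In the retina each cell class uses its own set of channels. Photoreceptors do not fire conventional spikes: an L-type calcium channel at the ribbon synapse drives steady glutamate release, and potassium and HCN channels of the inner segment shape the light response. Ganglion cells and some amacrine and bipolar cells fire sodium spikes and repolarize through voltage-gated potassium channels, while Müller glia clear potassium through inward rectifiers.

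Channel transcripts were a small part of each library, 0.856% to 0.879% of all counts in the 5 retinas, but the genes behind it shifted. The 6 photoreceptor channels described below made up 48.93%, 52.82% and 55.55% of the channel counts with DMSO. In Sorbinil replicates 1 and 3 they made up 67.97% and 50.54%. Levels between genes are compared here as CPM (a gene's counts scaled to a common library total) per kilobase of annotated exon. On that scale the most abundant members included Kcnj14, an inward rectifier, at a mean of 318, and Kcnv2, a silent potassium channel subunit of photoreceptors, at 141. Cacna2d4, an auxiliary subunit of the photoreceptor calcium channel, stood at 46.5, and Kcnab2, a cytoplasmic potassium channel subunit, at 38.2.

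**Figure D1:**
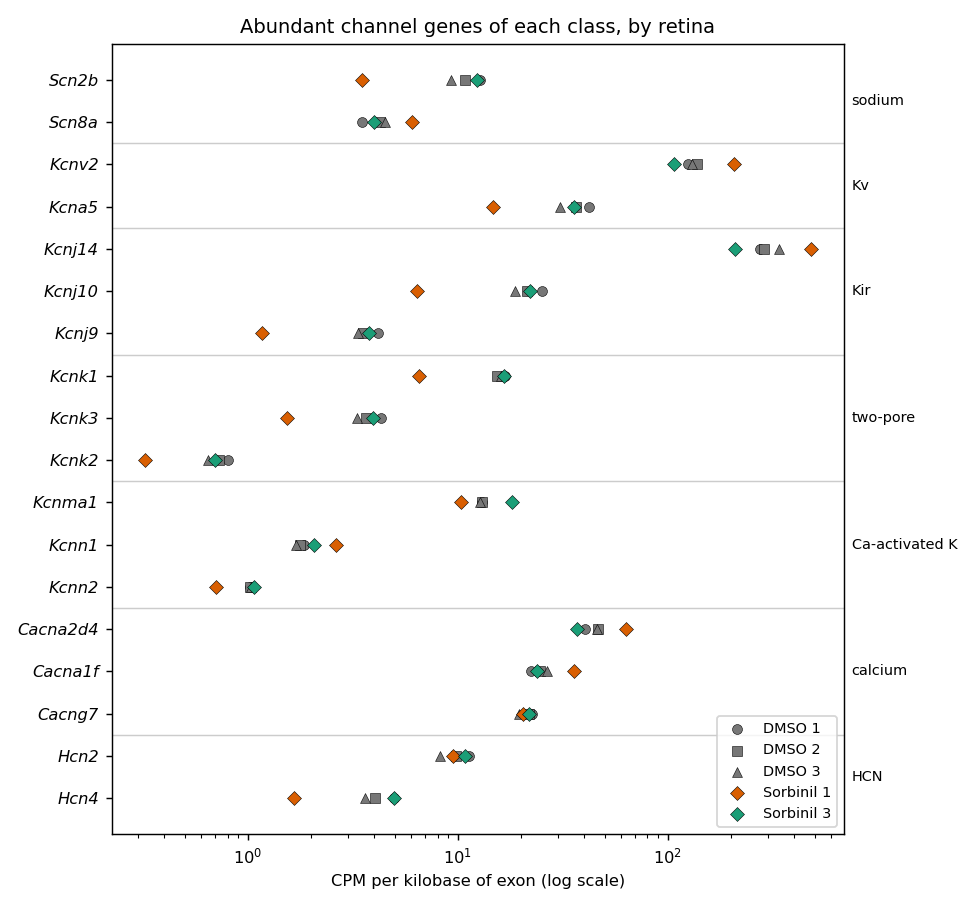
Level of abundant members of each channel class in each retina, as CPM per kilobase of exon on a log axis; each symbol is 1 retina (grey, DMSO; orange, Sorbinil replicate 1; green, Sorbinil replicate 3). The orange symbol lies to the right of the grey ones for Kcnv2, Kcnj14, Cacna2d4, Cacna1f, Scn8a and Kcnn1 and to their left for genes such as Kcnj10, Scn2b and Kcnk1.

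The stretches just upstream of 3 members are shown because these genes stood for different patterns below: Cacna1f, high in one Sorbinil retina; Kcnj10, low in that retina; and Scn7a, lower in both. The sequences are from RefSeq windows (a GRCm38.p6 table) that each matched GRCm39 exactly once, cut at the annotated gene start and written 5′ to 3′ on the gene's strand. They lie at chrX:7473092-7473321 (plus strand), chr1:172168527-172168764 (plus strand) and chr2:66615368-66615504 (minus strand), and capitals mark TAATCC, a photoreceptor homeobox motif, or its reverse complement GGATTA where present.
Cacna1f: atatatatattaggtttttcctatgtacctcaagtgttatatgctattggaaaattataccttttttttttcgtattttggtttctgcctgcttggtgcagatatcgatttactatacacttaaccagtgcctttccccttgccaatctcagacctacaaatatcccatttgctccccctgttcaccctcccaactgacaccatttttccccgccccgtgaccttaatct
Kcnj10: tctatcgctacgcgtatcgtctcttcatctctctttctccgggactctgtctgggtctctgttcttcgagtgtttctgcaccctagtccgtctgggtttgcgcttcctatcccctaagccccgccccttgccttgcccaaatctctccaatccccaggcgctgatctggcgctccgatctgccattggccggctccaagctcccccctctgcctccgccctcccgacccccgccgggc
Scn7a: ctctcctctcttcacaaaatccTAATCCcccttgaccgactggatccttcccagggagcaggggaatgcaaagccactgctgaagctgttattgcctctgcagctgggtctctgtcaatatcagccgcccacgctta
The 3 stretches differed in base composition, with 40.0% G and C for Cacna1f, 62.2% for Kcnj10 and 54.0% for Scn7a, and the Kcnj10 stretch held 17 CpG pairs against 4 and 3. The motif, searched on both strands in the 250 bases before the start, stood in 4 of 134 windows of 98 members (2.99%), those of Cacna1s, Cacng8, Kcnj9 and Scn7a, and in 6.25% of all 32851 windows.

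Between the groups few channel genes differed. With edgeR's quasi-likelihood test, at an unadjusted p of at most 0.1 and at least 2-fold, 2 of 115 members were lower with Sorbinil (Kcnk6 and Kcnk5), where 1.35% of all tested genes were, and 0 were higher, where 0.36% were. At an unadjusted p under 0.05 without a fold limit the same 2 members were lower (1.78% of all genes) and again 0 were higher (3.23% of all genes). DESeq2's Wald test put 3 members under that p. Kcnk6 and Scn7a were lower (2.48% of all genes were) and Kcnn1 was higher (3.89% of all genes were). After Benjamini-Hochberg adjustment over all genes no member passed 0.05 by either tool (smallest adjusted p = 0.758 with edgeR and 0.505 with DESeq2). The fitted log2 fold change (Sorbinil over DMSO) was below 0 for 99 of the 115 and had a median of -0.29, beside -0.01 for all genes tested. That median rested on 1 retina: leaving out Sorbinil replicate 1 gave 0.13, and leaving out Sorbinil replicate 3 gave -1.19.

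Kcnk6 encodes a tandem-pore potassium channel known for potassium efflux in activated macrophages. It lies at chr7:28921346-28932035 and measured 1.67, 1.81 and 1.17 CPM in the DMSO retinas and 0.495 and 0.869 in the Sorbinil retinas. Both Sorbinil values lay below every DMSO value. The mean was 1.55 ± 0.337 CPM with DMSO (SD, n = 3) and 0.682 ± 0.265 with Sorbinil (SD, n = 2), a log2 fold change of -1.18 (SE 0.39; edgeR unadjusted p = 0.0251, adjusted p = 0.758). Without Sorbinil replicate 1 the log2 difference was -0.83 and no longer reached 2-fold. Kcnk5, a related acid- and volume-sensitive channel at chr14:20190125-20231900, was close to the detection limit, with 18, 8 and 11 counts against 3 and 3. The pooled ratio of its count rates, Sorbinil over DMSO, was 0.313 (exact 95% interval 0.108 to 0.747, counting error only), with an unadjusted edgeR p of 0.0344 that rose to 0.141 without Sorbinil replicate 3.

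Whether the groups overlapped gave a wider list. In 8 members both Sorbinil retinas lay below all 3 DMSO retinas, 6.96% of the 115 beside 10.5% of all genes, and in 1 member, Kcnn1, both lay above, 0.87% beside 12.8% of all genes. These shares were below the background in both directions. The 8 were Kcnk4, Kcnk5, Kcnk6 and Kcnk13 of the tandem-pore family, Kcnf1, Kcng2 and Kcng4, which are silent subunits that modify other potassium channels, and the atypical sodium channel Scn7a.

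Scn7a, a channel gated by extracellular sodium rather than voltage and known from glia, measured 28.8, 31.4 and 30.8 CPM with DMSO and 10.6 and 25.02 with Sorbinil. The DMSO retinas were close together, one Sorbinil retina was far below them and the other just below. Its log2 fold change was -0.76 (SE 0.35; edgeR unadjusted p = 0.0766), and -0.27 without Sorbinil replicate 1. Kcng4 measured 36.9, 31.6 and 32.1 CPM against 19.5 and 29.4, a log2 fold change of -0.45 (SE 0.20; edgeR unadjusted p = 0.0704) that was -0.18 without Sorbinil replicate 1. For Kcnk13, the tandem-pore channel that sets the resting potential of microglia, the DMSO retinas held 0.724, 0.851 and 0.792 CPM and the Sorbinil retinas 0.438 and 0.589. The gap was narrow, and its log2 difference was -0.61 (SE 0.32; edgeR unadjusted p = 0.107). Kcnf1 measured 6.67, 5.74 and 5.15 CPM, then 1.98 and 4.89, a log2 difference of -0.77 (edgeR unadjusted p = 0.110). Kcnk4 measured 0.765, 0.413 and 0.504 CPM, then 0.190 and 0.398, a log2 difference of -0.92 (edgeR unadjusted p = 0.118). Both rested mainly on Sorbinil replicate 1, with log2 distances from the DMSO mean of -1.54 and -1.39 there, beside -0.25 and -0.42 in Sorbinil replicate 3. Kcnk4 shares exon sequence with Catsperz on the same strand, so its reads may be split. Kcng2 was the closest call, its highest Sorbinil value being 0.354 CPM and its lowest DMSO value 0.360.

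Kcnn1, a small-conductance calcium-activated potassium channel that follows spikes with a slow hyperpolarization, was the one member higher in both Sorbinil retinas. It measured 10.4, 9.995 and 9.56 CPM with DMSO and 14.9 and 11.7 with Sorbinil. The DMSO retinas lay within 1 CPM of each other. The log2 fold change was 0.41 (SE 0.17; edgeR unadjusted p = 0.0524) and 0.23 without Sorbinil replicate 1. Its relative Kcnn2 did not separate, with 11.5, 11.5 and 11.7 CPM against 7.99 and 12.04.

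**Figure D2:**
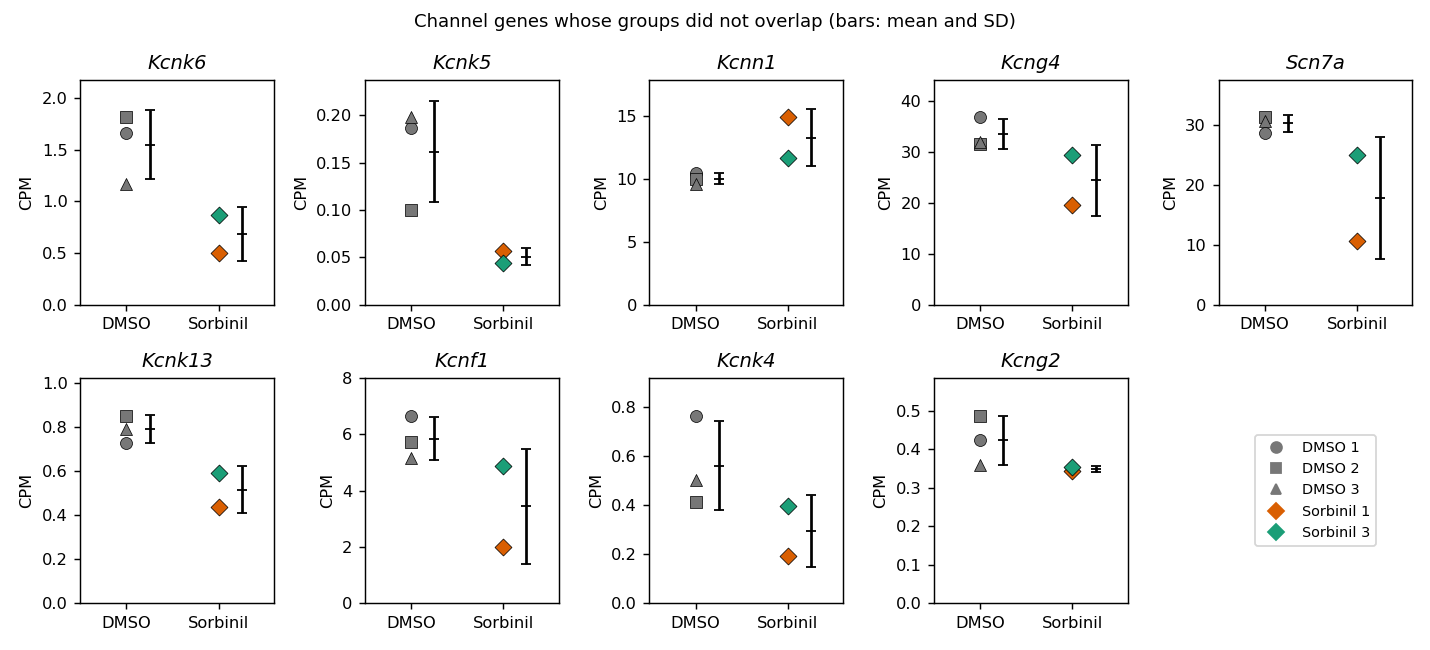
CPM of the 9 members whose groups did not overlap, each point 1 retina, with the mean and SD of each group beside the points; every axis starts at 0. Kcnn1 was higher in both Sorbinil retinas (14.9 and 11.7 against at most 10.4) and the other 8 were lower, Kcng2 by the smallest margin.

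The larger pattern was a split between the 2 Sorbinil retinas. In Sorbinil replicate 1, 93 of the 115 tested members lay below every DMSO retina (80.9%, beside 41.7% of all genes) and 12 above every DMSO retina (10.4%, beside 43.4%). In Sorbinil replicate 3, 16 lay below (13.9%, beside 29.1% of all genes) and 50 above (43.5%, beside 27.3%). Both sets of positions share the same 3 DMSO retinas. Measured from the DMSO mean, the 115 had a median log2 distance of -1.11 in Sorbinil replicate 1 (quartiles -1.38 and -0.70), while the median for Sorbinil replicate 3 was 0.12 (quartiles -0.04 and 0.26). At least 2-fold below the DMSO mean stood 66 members in Sorbinil replicate 1 (57.4%, beside 17.4% of all genes) and 1 in Sorbinil replicate 3 (0.870%, beside 0.914%). At least 2-fold above it stood 0 members in either, beside 1.76% and 0.780% of all genes. The 2 Sorbinil retinas also differed in sex. The median difference of members was -1.17 between Sorbinil replicate 1 and the male DMSO retinas, beside 0.021 for all genes. Between the female retinas it was 0.25, beside 0.003 for all genes. These sets hold too few retinas for a test.

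**Figure D3:**
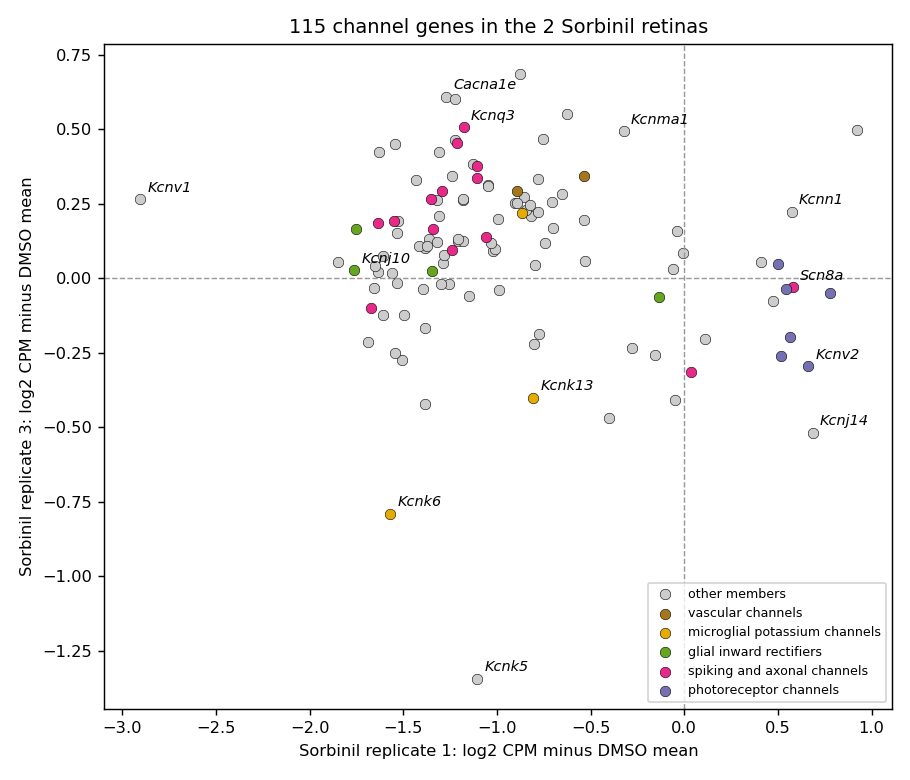
Each point is 1 of the 115 tested members, placed by its log2 CPM minus the mean of the 3 DMSO retinas in Sorbinil replicate 1 (horizontal) and in Sorbinil replicate 3 (vertical), coloured by role group; the axes share the DMSO mean. Most points lie left of 0 on the horizontal axis (median -1.11) and close to 0 on the vertical axis (median 0.12), the 6 photoreceptor channels lie right of 0, and Kcnk6 and Kcnk5 lie low on both.

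The 12 members above every DMSO retina in Sorbinil replicate 1 included all 6 photoreceptor channels, a group drawn up with earlier results known. Of these, Kcnv2 measured 635, 702 and 665 CPM in the DMSO retinas, then 1054 and 544 in Sorbinil replicates 1 and 3. The pore subunit of the ribbon-synapse calcium channel, Cacna1f, measured 203, 225 and 241 CPM, then 323 and 217. One Sorbinil retina was thus high for both genes, and the other within or below the DMSO range. The auxiliary subunits of the same calcium channel did likewise: Cacna2d4 measured 384, 444 and 440 CPM, then 602 and 352, and Cacnb2 177, 181 and 192 CPM, then 271 and 160. None of the 6 passed the test (edgeR unadjusted p = 0.222 for Cacna1f and 0.508 for Cacna2d4), and their median log2 fold change was 0.27.

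Outside that group, the other 6 members high in Sorbinil replicate 1 were Kcnj14, Kcnh5, Scn4a, Scn8a, Kcnn1 and Kcng1. Kcnj14 measured 745, 784 and 919 CPM in the DMSO retinas, then 1307 and 568, so that the Sorbinil retinas lay on either side of the DMSO range. Kcnh5, an ether-à-go-go type potassium channel, measured 101, 114 and 116 CPM, then 146 and 114. Scn8a, the sodium channel of mature axon initial segments and nodes, measured 55.0, 66.9 and 71.1 CPM, then 95.7 and 62.6. It ran against the other spiking channels. Scn4a, best known from skeletal muscle, measured 27.5, 24.7 and 30.3 CPM, then 38.0 and 26.0. Kcng1 was at the detection limit, under 0.3 CPM in every retina.

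Of the 14 channels of spiking cells and axons, 12 lay below every DMSO retina in Sorbinil replicate 1. That was 85.7%, near the 80.9% of all members tested, beside 41.7% of all genes. In Sorbinil replicate 3, 8 lay above every DMSO retina (57.1%, beside 43.5% of members and 27.3% of all genes). There, 1 lay below (7.14%, beside 13.9% of members and 29.1% of all genes). Scn1a, a sodium channel of spiking retinal neurons, measured 28.03, 23.3 and 24.0 CPM with DMSO, then 8.54 and 28.6. Scn2b, a sodium channel beta subunit, measured 59.3, 50.4 and 43.1 CPM, then 16.3 and 57.4. The low value stood in the same retina for both. Kcnc1, a fast potassium channel that allows rapid firing, measured 95.3, 80.8 and 70.5 CPM, then 31.9 and 98.2, and Kcnq3, a subunit of the M-current that damps repetitive firing, 7.80, 6.84 and 4.72 CPM, then 2.78 and 8.99. Kcna2, the potassium channel placed beside nodes of myelinated axons, measured 53.7, 48.1 and 36.9 CPM, then 21.2 and 59.3. Like these, the remaining genes were lowest in Sorbinil replicate 1, except Scn8a, above, and Kcnab2, which measured 395, 406 and 368 CPM, then 400 and 313. No gene of the 14 passed the test, and the median log2 fold change was -0.32. Scn3a (16.9, 16.0 and 15.4 CPM, then 7.46 and 20.3) and Scn2a (19.5, 18.1 and 15.0 CPM, then 8.35 and 19.2) are sodium channels of developing and unmyelinated neurites.

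Among the inward rectifiers of glia and epithelium the most abundant was Kcnj10, the main potassium conductance of Müller cells, at chr1:172168765-172201652. It measured 136, 116 and 102 CPM with DMSO, then 34.5 and 119 with Sorbinil. One Sorbinil retina lay far below and the other inside the DMSO range, so the log2 fold change of -0.62 (SE 0.50) did not pass the test (edgeR unadjusted p = 0.267). Kcnj2 measured 22.5, 20.2 and 16.4 CPM, then 7.67 and 19.9, in the same order. Kcnj16, which pairs with Kcnj10, stayed at or below 0.3002 CPM, and Kcnj13, the rectifier of the pigment epithelium, lay within the DMSO range in both Sorbinil retinas (1.98, 1.91 and 3.31 CPM, then 2.11 and 2.23). Among neuronal inward rectifiers, the G protein-gated Kcnj9 measured 40.8, 34.8 and 32.8 CPM, then 11.4 and 37.0.

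The microglial potassium channels were low in abundance. Beside Kcnk6 and Kcnk13, Kcna3 measured 9.29, 8.52 and 7.49 CPM with DMSO, then 4.59 and 9.77, so it did not separate the groups, and Kcnn4 was removed by the filter with 4, 3 and 2 counts against 0 and 8. Median distances from the DMSO mean (3 tested genes) were -0.87 in the first Sorbinil retina (replicate 1) and -0.40 in the second (replicate 3). In replicate 3 the next lowest role group, the photoreceptor channels, had a median of -0.12. The 3 genes differed in that retina, with Kcnk6 at -0.79, Kcnk13 at -0.40 and Kcna3 at 0.22. Outside the group, the tandem-pore Kcnk5 (-1.34) and Kcnk4 (-0.42) were also low in it. Of the channels listed as vascular only Cacna1h and Cacna1c passed the filter. The first is a T-type calcium channel and the second an L-type channel known from smooth muscle. Cacna1h measured 147, 123 and 118 CPM, then 69.3 and 157, and Cacna1c 10.5, 11.4 and 11.5 CPM, then 7.65 and 14.1. Both lay below the DMSO range in one Sorbinil retina and above it in the other. In Sorbinil replicate 3 their median distance was 0.32. The pericyte and smooth muscle markers described below stood there at -0.07 and the endothelial markers at -0.85. Which cells carried the Cacna1h and Cacna1c transcripts was not tested.

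By class, the lowest median log2 distance in Sorbinil replicate 1 was that of the sodium beta subunits, at -1.59 (4 of 4 genes below every DMSO retina), then the calcium gamma subunits at -1.50 (5 of 6), the inward rectifiers at -1.36 (10 of 12) and the tandem-pore channels at -1.29 (10 of 10). The calcium- and sodium-activated potassium channels stood nearest to the DMSO mean, at -0.53 (4 of 7). Of all members tested, 80.9% lay below every DMSO retina in Sorbinil replicate 1, beside 41.7% of all genes. In Sorbinil replicate 3 the class medians ran from -0.01 (tandem-pore) to 0.28 (calcium alpha1 subunits, 8 of 10 above every DMSO retina). Kcnma1, the large-conductance calcium-activated channel, measured 221, 221 and 216 CPM, then 175 and 308: the DMSO retinas were nearly equal and the Sorbinil retinas lay on both sides. Kcnb2, a delayed rectifier, had the highest distance in Sorbinil replicate 3, with 25.7, 24.97 and 22.4 CPM, then 13.2 and 39.1. Cacna1e and Cacna1i, calcium channels of neurons, followed it, Cacna1i with 55.99, 55.6 and 46.1 CPM, then 22.4 and 79.5. Cacng7, an AMPA receptor partner of the gamma family, stayed between 77.3 and 89.5 CPM in all 5 retinas.

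**Figure D4:**
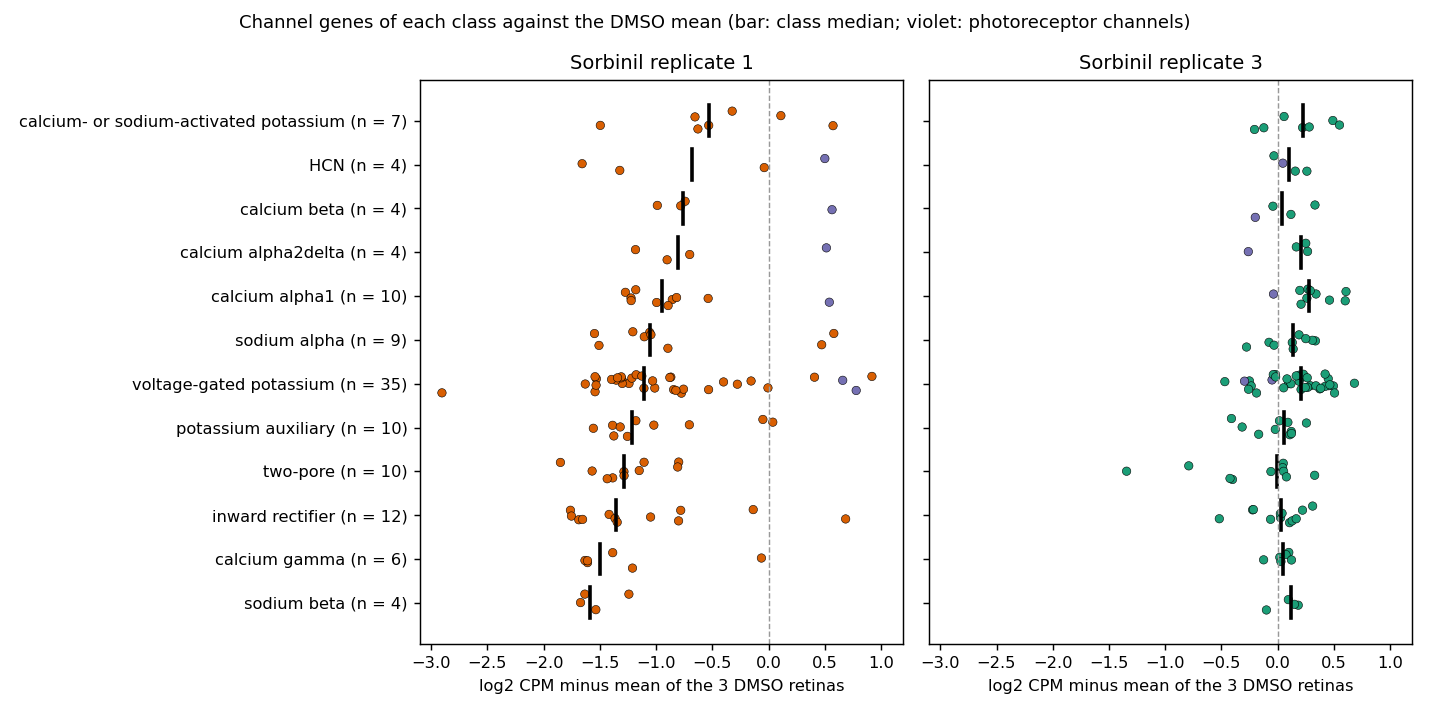
Log2 CPM minus the mean of the 3 DMSO retinas for each tested member, by channel class, in Sorbinil replicate 1 (left) and Sorbinil replicate 3 (right); a point is 1 gene, a bar the class median, and violet marks the photoreceptor channels. In the left panel the class medians run from -1.59 (sodium beta) to -0.53 (calcium- or sodium-activated potassium), and in the right panel from -0.01 to 0.28.

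Among the HCN channels, which carry the current that opens on hyperpolarization, Hcn3 and Hcn4 were low in Sorbinil replicate 1. Hcn4 measured 33.0, 26.8 and 24.0 CPM, then 11.1 and 33.2, and Hcn3 20.6, 17.2 and 16.7 CPM, then 5.71 and 17.7, while Hcn2 stayed between 29.3 and 40.3 CPM throughout. Other abundant members followed the general order. Kcna5, a delayed rectifier, measured 121, 104 and 87.7 CPM, then 41.9 and 102, Kcnk1 42.3, 38.7 and 40.5 CPM, then 16.6 and 42.0, and Kcnk3 40.01, 33.8 and 30.8 CPM, then 14.2 and 36.6. The DMSO retinas were themselves ordered: 64 of the 115 (55.7%, beside 25.4% of all genes) were highest in DMSO replicate 1 and lowest in DMSO replicate 3. Kcne2, an auxiliary subunit found in epithelia, was one of those that were not, at 46.9, 48.7 and 64.7 CPM, then 51.1 and 39.8.

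Channel partners, the proteins that anchor, traffic or tune these channels, were described in the same way from a list of 61 genes, of which 58 were tested. At the 2-fold threshold 0 were called in either direction by edgeR, and at an unadjusted p under 0.05 there were 0 lower and 2 higher (3.45%, near the 3.23% of all genes). The 2 were Unc80, a subunit of the sodium leak channel complex, and Ank2, a spectrin-binding anchor. Unc80 measured 167, 184 and 193 CPM with DMSO and 268 and 225 with Sorbinil (log2 fold change 0.44, SE 0.14, edgeR unadjusted p = 0.0221). Ank2 measured 484, 529 and 572 CPM, then 677 and 703 (log2 fold change 0.39, SE 0.15, edgeR unadjusted p = 0.0402). Neither passed the adjusted threshold (adjusted p = 0.758). In these genes and Nfasc, another anchor, the 2 Sorbinil retinas lay above all DMSO retinas, 3 of 58 partners (5.17%, beside 12.8% of all genes). For the 58 partners the median distance from the DMSO mean was -0.70 in the first Sorbinil retina and 0.06 in the second.

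Markers of the cell types in whole retina moved in the same retinas, and in such bulk RNA fewer cells of a type and less RNA per cell cannot be told apart. The 15 rod markers all lay above every DMSO retina in Sorbinil replicate 1, and 12 of 15 lay below in Sorbinil replicate 3; their summed level was 96340 to 115100 CPM with DMSO, then 159800 and 83030 with Sorbinil. Of the 9 cone markers 8 were above in Sorbinil replicate 1 (1024 to 1394 CPM with DMSO, then 1738 and 994). All 9 Müller glia markers lay below every DMSO retina in Sorbinil replicate 1 (5725 to 6709 CPM, then 2201 and 6232), as did 9 of 11 RGC markers (166 to 261 CPM, then 80.0 and 202), 11 of 11 amacrine markers (901 to 1176 CPM, then 378 and 1143) and 10 of 10 bipolar markers (1337 to 1497 CPM, then 857 and 1554). In Sorbinil replicate 3, 4 of 11 RGC markers lay below every DMSO retina (36.4%, beside 29.1% of all genes) and 0 above (beside 27.3%). In Sorbinil replicate 1, 41.7% of all genes lay below every DMSO retina and 43.4% above. The part of cell composition in the channel differences was not tested.

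Beside the microglial potassium channels, 13 of 13 microglia markers lay below every DMSO retina in Sorbinil replicate 1. In Sorbinil replicate 3, 2 of 13 did (15.4%, beside 29.1% of all genes). The summed level of the 13 was 171 to 257 CPM with DMSO, then 116 and 192. The median log2 distance of these 13 from the DMSO mean was -0.90 in the first Sorbinil retina and -0.12 in the second. Endothelial markers were mostly lower in both: 11 of 12 lay below every DMSO retina in Sorbinil replicate 1 (91.7%, beside 41.7% of all genes). In Sorbinil replicate 3, 10 of 12 did (83.3%, beside 29.1%). With both Sorbinil retinas tested against DMSO, 7 of the 12 were called lower, where 1.35% of all genes were. Their summed level was 316 to 493 CPM with DMSO, then 165 and 416, so Sorbinil replicate 3 lay inside the DMSO range. The most abundant of them, Kdr, did not separate, with 306.5, 255.6 and 174.5 CPM, then 111.1 and 276.7. Astrocyte (58.1 to 80.7 CPM, then 23.6 and 67.7; 3 of 3 below in Sorbinil replicate 1) and pericyte markers (69.5 to 93.7 CPM, then 24.7 and 69.5; 8 of 8 below) were low in Sorbinil replicate 1, as were horizontal cell markers (81.8 to 96.9 CPM, then 46.5 and 99.3; 4 of 4 below). Pigment epithelium markers, 4 of 5 below in Sorbinil replicate 1, were highest in DMSO replicate 3 (146 CPM, against 53.9 and 57.4 in the other DMSO retinas, then 48.7 and 84.3). No marker on these lists was at 0 in every retina, and the part of the named cell types in the values of Kcnk6 and Kcnk13 was not tested.

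**Figure D5:**
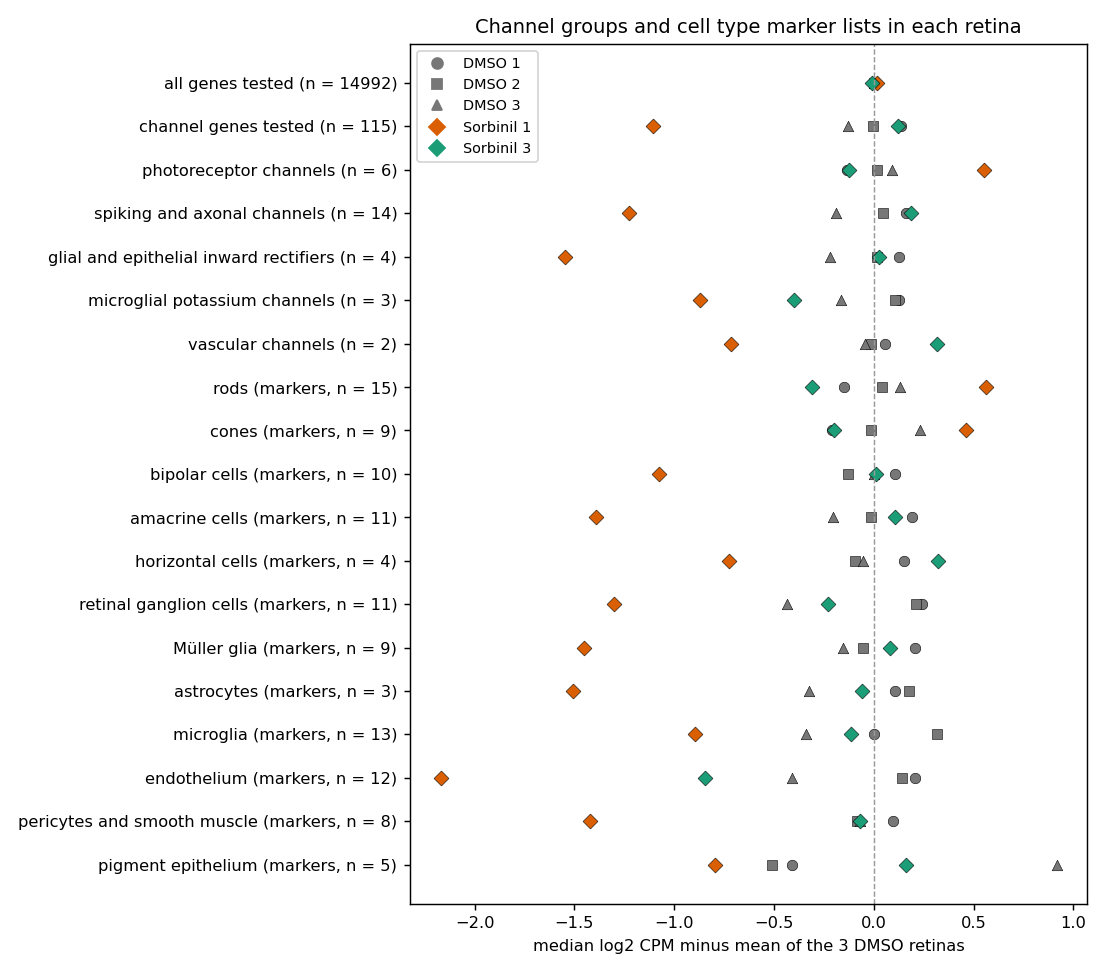
Median log2 CPM minus the mean of the 3 DMSO retinas for the tested channel genes, the channel role groups and the cell type marker lists, with 1 symbol per retina and the number of genes in brackets. In Sorbinil replicate 1 the photoreceptor channels (0.55) stood beside the rod (0.56) and cone (0.46) markers. The spiking channels (-1.23) and glial inward rectifiers (-1.55) stood there beside the amacrine (-1.39), RGC (-1.30) and Müller glia (-1.45) markers. In Sorbinil replicate 3 the spiking channels (0.19) and RGC markers (-0.23) lay on opposite sides of 0, with the amacrine markers at 0.11.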

How the data were processed

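Total RNA of 5 whole retinas was sequenced. According to the labels and the study's methods, the authors mapped reads to GRCm39 in CLC Genomics Workbench, excluded a retina after a principal component analysis, and deposited total counts per gene. The labels and the methods differ in the kit and input named, and whether counting used strand or exons alone is not given in the sources used here, so reads of overlapping genes may be shared (antisense neighbours include Pklr for Hcn3, Igsf8 for Kcnj9, Lrtm2 for Cacna2d4, Chd5 and Nphp4 for Kcnab2, Gigyf2 for Kcnj13, Tpsg1 for Cacna1h, Prr29 for Scn4a and Slc66a2 for Kcng2).

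From the deposited counts, edgeR 4.0.16 (R 4.3.3, limma 3.58.1) was run with TMM scaling, filterByExpr (minimum count 10), quasi-likelihood fits without covariates and Benjamini-Hochberg adjustment over all genes. Calls used the study's threshold, an unadjusted p of at most 0.1 and 2-fold. CPM are TMM-scaled; per-retina distances are differences of log2 CPM with a prior count of 2. Alternatives used DESeq2 1.42.0, other scalings, filters, tests, the replicate block and leaving out each retina; the code was tested on simulated data. Exon lengths and positions come from GENCODE mouse release 39 and promoter sequences from RefSeq. Members, gene groups, partners and marker lists were chosen with earlier results of these data known. Cnga1, Cngb1, Cnga3, Cngb3, Trpm1 and Kcnj8 stand on both the partner and a marker list. Named genes were the role groups, called members, the 5 members with the smallest p in each direction and the 3 most abundant of each class, some of which are not reported here; members whose groups did not overlap, those above the DMSO range in Sorbinil replicate 1, and Kcnb2, Cacna1e, Cacna1i, Kcne2, Hcn2, Hcn3, Hcn4, Unc80, Ank2 and Nfasc were named after their values were seen. The labels number the retinas without naming animals, while the paper's figure legend counts 3 DMSO mice and 2 Sorbinil mice. The p-values measure only the spread between these retinas, which may in part be technical. Reads carried no molecular identifiers, so intervals cover counting error only.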

Additional observations from a re-analysis of the deposited data

How the results depend on the processing

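With 2 Sorbinil retinas that differ widely, group tests have little precision, and the 20 members the filter removed, none above 17 counts in a retina, were not tested. The count of 2 members called lower became 4 without the filter (Kcnj15 and Kcnq1 added, and Kcnj1 as 1 called higher). It was 1 with at least 10 counts in every retina, 1 with the replicate block and 0 at an adjusted p of at most 0.1. Leaving out 1 DMSO retina left Kcnk6 called, with Kcnk5 beside it only without DMSO replicate 2. At an unadjusted p under 0.05 the 2 lower members became 1 with at least 10 counts in every retina. They became 1 with a sex term (chosen after seeing the data). The 0 higher became 1 (Kcnn1) with upper-quartile scaling and 1 with DESeq2's Wald test. The extremes came from the Sorbinil retinas: without replicate 3, 67 members were called lower (17.4% of all genes), 84 were lower (26.3% of all genes) and 11 higher at an unadjusted p under 0.05, and 88 passed an adjusted p of 0.05, under the assumption that the lone Sorbinil retina varies like the DMSO retinas; without replicate 1, 1 was called lower and 14 were higher (4.70% of all genes). The median log2 fold change ran from -1.19 to 0.13 when 1 retina was left out, and from -0.50 to -0.29 under the other settings, where it stayed negative. The cause of these changes beyond the retina or filter named was not tested. Kcnk6 lost its call with the replicate block, at -1.08, and without Sorbinil replicate 1, at -0.83, and kept it under every other setting with an unadjusted threshold. Kcnk5 was not tested without DMSO replicate 1 or 3. The correlation of deviations between same-numbered retinas was -0.24 for number 1 and -0.13 for number 3. With 2 Sorbinil retinas, the deviations of one mirror those of the other. These correlations therefore cannot show whether same-numbered retinas belong together. The replicate block left the direction of the median unchanged (-0.43). Library size alone moved the median of all genes to -0.25 in Sorbinil replicate 1, where the photoreceptor channels were then at 0.28 and the other role groups from -1.78 to -0.99; the direction of each role group was the same under all 5 scalings.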
